A study of Mus musculus with 6 samples.

Results

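The genes described here are 47 components of the DNA replication machinery and of its nucleotide supply. They were chosen by name, as members of known complexes and pathways, and each was read from the row of the deposited expression table that carries its symbol. All 47 were found, on 1 row each, among 23094 rows with a gene name, and all 47 were among the 8302 rows with enough signal to test (a mean RPKM of at least 1, where RPKM is a read number scaled to transcript length and to the library's mapped reads). The row of Pcna also names Tmem230 and that of E2f1 also names Necab3, so these values cannot be assigned to a single gene.

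The libraries came from erythroid cells of C57BL/6 mouse fetal liver at embryonic day 13.5, sorted for the surface antigens CD71 (the transferrin receptor) and Ter119 (a marker of the red cell lineage). A set of 3 libraries is labelled Tfam WT and another of 3 is labelled Tfam KO, numbered 1 to 3 in each, and WT and KO below stand for these labels. The labels name no Cre driver, litter, sex or batch. Whether each library came from its own embryo is not stated, so p-values reflect only how these libraries vary.

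Before a cell copies its DNA, the origin recognition complex with Cdc6 and Cdt1 loads the ring of MCM proteins onto origins, a step called licensing, which geminin blocks once S phase has begun. Cyclin E with Cdk2 and the kinase Cdc7 then activate MCM, GINS and Cdc45 as the replicative helicase. Polymerases alpha, delta and epsilon copy the strands behind it, with the PCNA clamp and its RFC loader, while ribonucleotide reductase and thymidylate synthase supply deoxynucleotides. Many of these genes are targets of the E2F transcription factors. Erythroblasts of the fetal liver divide rapidly as they mature, and this stage depends on S phase.

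Tfam, which encodes a factor that binds and transcribes mitochondrial DNA, was at 7.22, 8.44 and 5.72 RPKM in WT1, WT2 and WT3 and at 5.92, 7.22 and 6.25 in KO1, KO2 and KO3. KO and WT values overlapped, with p = 0.7 in a two-sided exact permutation test that cannot go below 0.1. The KO label is thus not borne out by the Tfam level in these data. Whether reads from exons outside a deletion were counted was not tested. WT3 stood apart, with an RPKM sum of 815524 against 423263 to 535933 in the others. Erythroid markers were high in all libraries (summed RPKM of 9 genes 10014 to 13426 in WT and 8654 to 12682 in KO). Macrophage markers summed to 12.2 to 18.7 RPKM in WT and 4.55 to 11.7 in KO over 10 genes, with Cd163 listed at 0 throughout. All 6 of those tested had a lower fitted value in KO, beside 53.0% of all rows tested. Of these, Cd5l, Marco and Csf1r averaged above 1 RPKM in WT and below it in KO. They reached the test through their WT values, so the count is partly set by the filter. Among those not tested, Emr1 and Vcam1 had a lower mean in KO and Mrc1 a higher one (0.315 against 0.217 RPKM). Neutrophil markers (6 genes) summed to 35.3 to 163 and 26.4 to 67.9, the highest in WT3. Hepatocyte markers (6 genes) summed to 32.0 to 78.6 and 12.6 to 125, megakaryocyte markers (5 genes) to 33.6 to 55.7 and 18.4 to 65.8, and early progenitor markers (5 genes, of which 4 were below 1 RPKM in every library) to 0.953 to 2.64 and 0.987 to 3.48. The part of these other cells in the results below was not tested. In bulk RNA, fewer cells in S phase and less RNA per cell cannot be told apart.

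The promoters of the replication genes show what many of them share in sequence. RefSeq promoter windows of build GRCm38.p6, which run from 250 bases before to 50 after a start, were found for 38 of the 47 genes (44 windows). They were searched on both strands for the octamers TTTCCCGC, TTTGGCGC, TTTCGCGC and TTTGCCGC, forms of the E2F site, with overlapping matches counted separately. At least 1 octamer stood in 14 of the 44 windows (31.8%), against 2.26% of all 32851 windows. The 14 genes with a match were 7 of 9 licensing and helicase genes searched, 6 of 17 polymerase and fork genes, 1 of 5 chromatin and repair genes, 0 of 5 nucleotide genes and 0 of 2 among the cyclin E and E2F1 genes. The E2f1 window begins within the coding sequence of that gene, so its upstream promoter was not searched. The lack of a match for E2f1 therefore says nothing about that promoter. The word CCAAT stood in 52.3% of the windows of replication genes and in 37.4% of all windows, and the GC box GGGCGG in 75% and 35.7%. A match describes letters in this window and is not evidence of binding. The 200 bases below come from 3 MCM helicase genes with octamers and from Rrm2, the most abundant nucleotide gene, which has none. They lie at chr8:75109309-75109508 (plus strand) for Mcm5, chr1:128359706-128359905 (minus strand) for Mcm6, chr5:138171884-138172083 (minus strand) for Mcm7 and chr12:24708054-24708253 (plus strand) for Rrm2. Each is written 5′ to 3′ along the gene's strand, and capitals mark E2F octamers on either strand.
Mcm5: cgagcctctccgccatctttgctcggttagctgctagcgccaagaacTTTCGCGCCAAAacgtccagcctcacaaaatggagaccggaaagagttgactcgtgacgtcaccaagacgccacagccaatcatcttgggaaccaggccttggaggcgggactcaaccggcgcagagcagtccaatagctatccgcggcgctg
Mcm6: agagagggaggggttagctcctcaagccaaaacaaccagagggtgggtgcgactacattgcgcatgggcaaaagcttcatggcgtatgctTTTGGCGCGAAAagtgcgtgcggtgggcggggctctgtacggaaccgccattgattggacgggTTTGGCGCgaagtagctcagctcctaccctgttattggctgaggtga
Mcm7: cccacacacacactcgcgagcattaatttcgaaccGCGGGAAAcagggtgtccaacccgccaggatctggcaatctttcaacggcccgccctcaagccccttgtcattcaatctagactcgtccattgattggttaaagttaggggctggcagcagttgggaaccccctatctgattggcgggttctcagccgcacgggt
Rrm2: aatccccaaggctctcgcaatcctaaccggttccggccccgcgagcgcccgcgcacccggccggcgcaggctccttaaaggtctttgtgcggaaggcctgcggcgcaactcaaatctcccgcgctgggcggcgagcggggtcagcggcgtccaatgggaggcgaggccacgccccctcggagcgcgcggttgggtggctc
The stretch of Mcm6 holds octamers in 2 separate places, those of Mcm5 and Mcm7 in 1 each. The median log2 fold change between KO and WT was -0.12 for the 14 genes with an octamer and -0.18 for the 24 genes with none in the windows searched, E2f1 among them (-0.15 and -0.12 with both libraries numbered 3 left out).

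Replication genes were strongly expressed in both groups, from a mean over the 6 libraries of 7.86 RPKM for Ung to 777 for Pcna, with a median of 58.1. None of the 47 differed between KO and WT beyond the spread between libraries. By limma on log2(RPKM + 1), 0 of 47 passed an adjusted p of 0.05, as did 0 of all 8302 rows tested (0%), and the adjusted p of the 47 ran from 0.909 to 0.978. At an unadjusted p under 0.05 there were also 0 of 47, against 100 of all rows (1.20%). In no replication gene did the 3 KO values lie wholly on one side of the 3 WT values. Over all rows KO lay wholly below in 2.36% and wholly above in 2.18%.

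The fitted values nevertheless leaned to one side. In 39 of 47 genes the fitted value was lower in KO and in 8 it was higher, with a median log2 fold change of -0.16. Over all rows tested 53.0% were lower, with a median of -0.02, but the lean grew with expression: 70.8% of rows at a mean RPKM of at least 20 were lower (median -0.14) and 77.9% of rows at 50 or more (median -0.19). Of the 47 genes, 42 had a mean of at least 20. For 40 genes the 95% interval of the fold change lay within 1 log2 unit of 0 in both directions. For the other 7 (Gmnn, Gins1, Gins4, Rfc2, Rfc4, Tyms and Tk1) it reached past -1, so a difference of that size lies within their intervals. After quantile normalization, which gives all libraries the same distribution, 26 of 47 were lower and 21 higher (median -0.01), beside 50.8% of all rows lower.

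**Figure D1:**
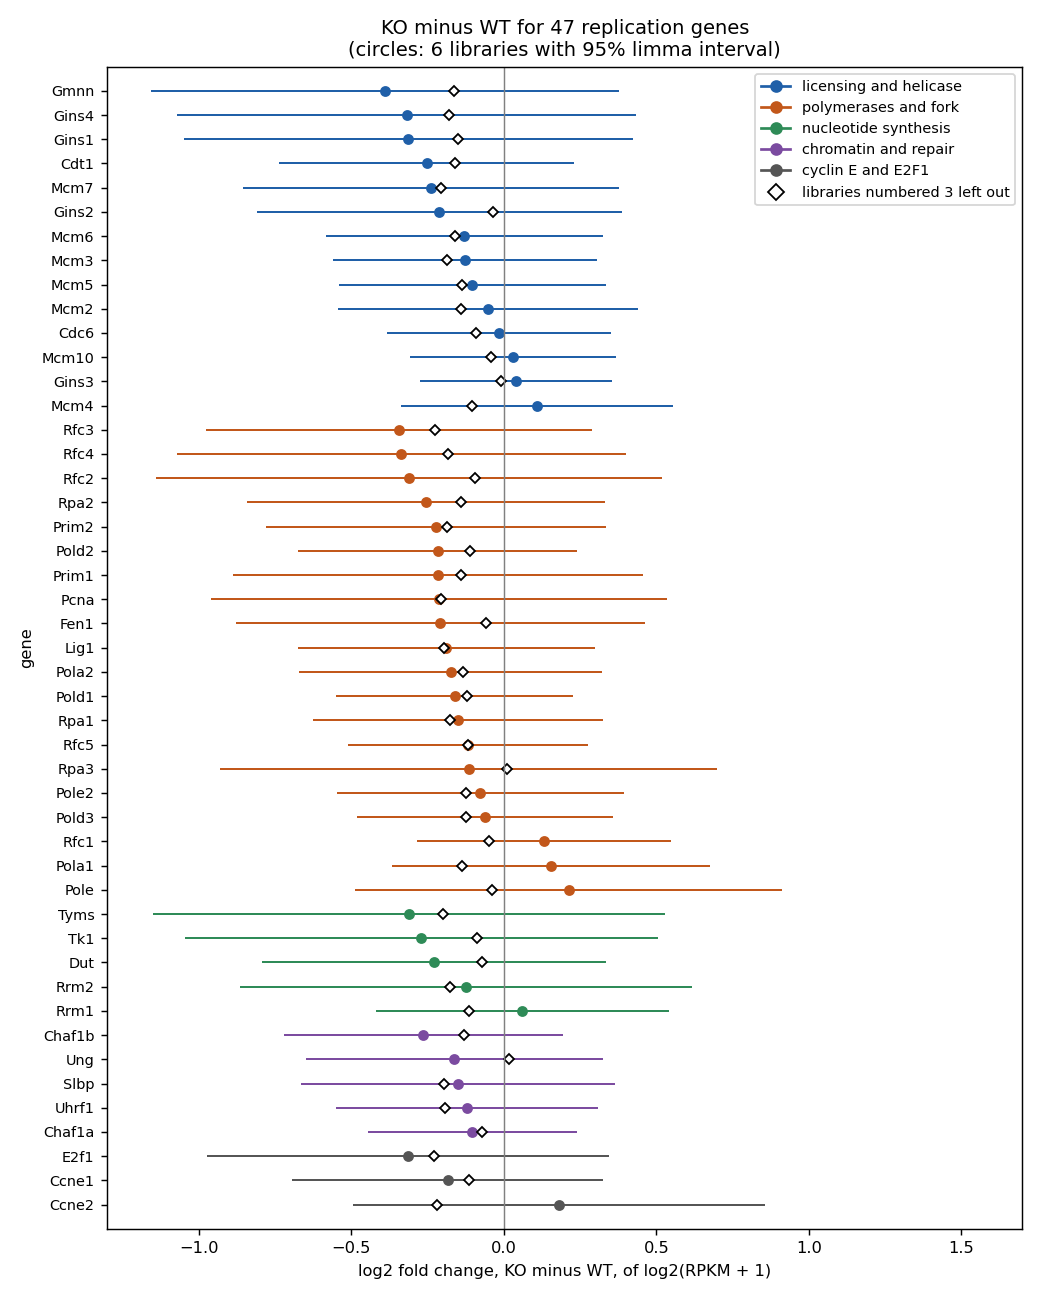
Log2 fold change of each replication gene (KO minus WT, of log2(RPKM + 1)), 1 row per gene, coloured by role. Circles with bars are the estimate from 6 libraries with its 95% limma interval, and diamonds are the estimate without WT3 and KO3. Every bar crosses 0, 45 of 47 diamonds lie below 0, and all 47 lie between -0.23 and 0.02.

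Licensing and helicase genes were well expressed and showed no difference that passed the test. Of 14 genes, 11 had a lower and 3 a higher fitted value (median -0.13, and 0.035 after quantile normalization). The MCM subunits form a ring of 6 different proteins, and Mcm7 was the most abundant of the 14 genes. Mcm7 was at 184, 182 and 277 RPKM in WT1, WT2 and WT3 and at 153, 164 and 224 in KO1, KO2 and KO3. The highest value was that of WT3, and KO3 lay above both WT1 and WT2, so the groups overlapped. Its log2 fold change was -0.24 (SE 0.26, interval -0.85 to 0.38, limma adjusted p = 0.909). Mcm6 was at 165, 174 and 193 RPKM in WT and 144, 159 and 184 in KO, with a log2 fold change of -0.13 (SE 0.19). Here too KO1 was lowest, WT3 highest and KO3 above WT1 and WT2.

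Mcm4, another subunit of the same ring, had the order of its libraries turned around. It was at 82.3, 85.0 and 65.4 RPKM in WT and 76.1, 79.5 and 95.1 in KO, so that WT3 was the lowest library and KO3 the highest. The log2 fold change was 0.11 (SE 0.19), and without WT3 it was -0.01. As a result the ratio of Mcm7 to Mcm4 was 4.23 in WT3 and 2.01 to 2.35 in the other 5 libraries.

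Geminin (Gmnn), the inhibitor of Cdt1, had the lowest log2 fold change of the 47 genes, -0.39 (SE 0.32, interval -1.15 to 0.38, limma adjusted p = 0.909). Its level was 102, 91.9 and 202 RPKM in WT and 82.3, 90.0 and 113 in KO. WT3 was the highest library, and KO3 exceeded both WT1 and WT2. Without WT3 the log2 fold change was -0.04. Cdt1 itself, the MCM loader, was at 82.4, 84.1 and 118 RPKM in WT and 71.3, 77.7 and 86.6 in KO. The ratio of Cdt1 to Gmnn was 0.811 and 0.915 in WT1 and WT2, 0.866 and 0.863 in KO1 and KO2, 0.583 in WT3 and 0.768 in KO3. Gins4, a subunit of the GINS complex of the helicase, was at 51.0, 50.05 and 101 RPKM in WT and 42.9, 46.0 and 66.3 in KO, a log2 fold change of -0.32 (SE 0.32) that was 0.01 without WT3. Its partner Gins3 was lower in level, at 7.81 to 8.20 RPKM in WT and 7.81 to 9.11 in KO, and had the narrowest standard error of the 47 genes (0.13) with a log2 fold change of 0.04.

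Polymerase and fork genes gave the widest range of levels and likewise no difference that passed. Of 20 genes, 17 had a lower and 3 a higher fitted value, with a median of -0.18. Pcna, the sliding clamp, was at 727, 687 and 1090.2 RPKM in WT and 608, 618 and 931 in KO. KO1 and KO2 lay below every WT library and KO3 above WT1 and WT2, and the log2 fold change was -0.21 (SE 0.32, interval -0.96 to 0.53, limma adjusted p = 0.909). Without WT3 it was 0.00. Lig1, the ligase that joins Okazaki fragments, was at 130, 127 and 164 RPKM in WT and 113, 112 and 145 in KO, with a log2 fold change of -0.19 (SE 0.21). Again KO1 and KO2 were the lowest libraries and WT3 the highest.

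In the RFC complex, which loads the clamp, fitted values had both signs. Rfc3 was at 21.1, 21.7 and 38.0 RPKM in WT and 16.7, 19.8 and 25.0 in KO (log2 fold change -0.34, SE 0.27). Rfc4 was at 66.5, 64.8 and 129 RPKM in WT and 54.9, 60.8 and 82.2 in KO (log2 fold change -0.34, SE 0.31). In both, KO3 lay above WT1 and WT2, and the log2 fold changes without WT3 were -0.08 and -0.02. Rfc1, the large subunit, was at 16.3, 19.6 and 13.3 RPKM in WT and 16.7, 17.8 and 19.1 in KO, a log2 fold change of 0.13 (SE 0.18) in which WT3 was the lowest library.

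The catalytic subunits of polymerases epsilon and alpha had fitted values above 0, as Rfc1 did. That of polymerase delta, Pold1, was below 0 (log2 fold change -0.16, SE 0.16), with WT3 its highest library. Pole, the catalytic subunit of polymerase epsilon, was at 10.1, 12.4 and 5.05 RPKM in WT and 10.6, 11.1 and 8.93 in KO. WT3 was the lowest library and KO3 the next, and the log2 fold change of 0.21 (SE 0.30, interval -0.48 to 0.91) was the highest of the 47 genes. Without WT3 it was -0.13. Pola1, the catalytic subunit of polymerase alpha, was at 23.7, 26.6 and 15.5 RPKM in WT and 22.9, 22.6 and 26.6 in KO (log2 fold change 0.16, SE 0.22), again with WT3 lowest. The smaller subunits of polymerases epsilon and alpha did not share this pattern. The ratio of Pole2 to Pole was 5.61 in WT3, 3.21 in KO3 and 1.79 to 2.13 in the other 4 libraries. That of Pola2 to Pola1 was 3.89 in WT3 and 1.63 to 1.90 in the other 5.

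Genes of nucleotide synthesis had the lowest median of the 5 roles, and none passed the test. Of 5 genes, 4 had a lower and 1 a higher fitted value (median -0.23), and without WT3 all 5 were higher (median 0.03). Rrm2, the regulated small subunit of ribonucleotide reductase, was at 661, 568 and 879 RPKM in WT and 575, 511 and 868 in KO. The libraries numbered 3 were the highest of each group and close to each other, and the log2 fold change was -0.12 (SE 0.31, interval -0.86 to 0.61, limma adjusted p = 0.918). Rrm1, the large subunit, was at 209, 203 and 186 RPKM in WT and 190, 190 and 247 in KO, with a log2 fold change of 0.06 (SE 0.20). WT3 was thus the lowest library for Rrm1 and the highest for Rrm2, and the ratio of Rrm2 to Rrm1 was 4.73 in WT3, 3.51 in KO3 and 2.69 to 3.17 in the other 4.

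Genes of the thymidine branch had fitted values below 0, as Rrm2 did, and none passed. Thymidylate synthase (Tyms) was at 168, 139 and 310 RPKM in WT and 129, 136 and 214 in KO, a log2 fold change of -0.31 (SE 0.36) that was 0.03 without WT3. Thymidine kinase (Tk1) was at 99.8, 106 and 210 RPKM in WT and 90.5, 103 and 135 in KO (log2 fold change -0.27, SE 0.33, and 0.07 without WT3). Dut, which removes dUTP, was at 35.5 to 58.8 RPKM in WT and 30.5 to 39.9 in KO. In each of these 3 genes WT3 was the highest library and KO1 the lowest.

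The 5 genes of chromatin assembly and repair had fitted values below 0 in all 5, with a median of -0.15 that was -0.01 after quantile normalization. Slbp, which binds the stem-loop of histone mRNAs, was at 233, 228 and 277 RPKM in WT and 203, 199 and 267 in KO (log2 fold change -0.15, SE 0.22). Uhrf1, which brings DNA methyltransferase to newly copied DNA, was at 138, 144 and 149 RPKM in WT and 122, 124 and 151 in KO (log2 fold change -0.12, SE 0.18). In both genes KO1 and KO2 lay below all WT libraries and KO3 within or above them. Chaf1a and Chaf1b, subunits of the histone chaperone CAF-1, were at 36.2 to 40.9 and 29.7 to 44.1 RPKM in WT and at 33.4 to 36.4 and 26.4 to 30.2 in KO. The uracil glycosylase Ung, the least abundant gene, was at 6.74 to 11.2 RPKM in WT and 6.35 to 8.05 in KO.

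E2f1 and the E cyclins, which act at entry into S phase, did not differ by the test either. E2f1 was at 40.7, 42.2 and 72.8 RPKM in WT and 35.2, 35.2 and 51.7 in KO, with a log2 fold change of -0.32 (SE 0.28, interval -0.97 to 0.34, limma adjusted p = 0.909). KO1 and KO2 were the lowest libraries, and KO3 lay above WT1 and WT2. Ccne1 was at 65.1, 64.8 and 93.1 RPKM in WT and 55.3, 64.9 and 74.3 in KO (log2 fold change -0.18, SE 0.22). Ccne2 ran the other way in WT3, its lowest library, at 24.9, 22.4 and 13.3 RPKM in WT and 24.6, 16.4 and 27.2 in KO (log2 fold change 0.18, SE 0.29). In KO3 both E cyclins were above KO1 and KO2. The ratio of Ccne1 to Ccne2 was 7.02 in WT3 and 2.25 to 3.95 elsewhere.

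The libraries numbered 3 set much of the spread. WT3 was the highest of the 6 libraries in 34 of 47 genes, against 41.7% of all rows and 62.7% of rows at a mean RPKM of at least 20, and the lowest in 6 (36.8% and 20.8%). KO3 was the highest in 10 (996 of all 8302 rows and 455 of the 2848 at 20 or more), and KO1 was the lowest in 32 (22.5% and 33.9%). The median log2 deviation of WT3 from WT1 and WT2 was 0.49 in the replication genes, 0.04 in all rows, 0.44 in rows at 20 or more and 0.67 in rows at 50 or more. Relative to the mean of WT1 and WT2, the level in WT3 ran from 0.449 times for Pole to 2.25 times for Rfc2, with a median of 1.42. It exceeded 2 for Gmnn, Rfc2, Rpa3, Tyms and Tk1 and was below 1 for Mcm4, Mcm10, Rfc1, Pola1, Pole, Rrm1 and Ccne2. KO3 relative to the mean of KO1 and KO2 ran from 0.822 for Pole, the only gene below 1, to 1.61 for Tyms, with a median of 1.30.

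**Figure D2:**
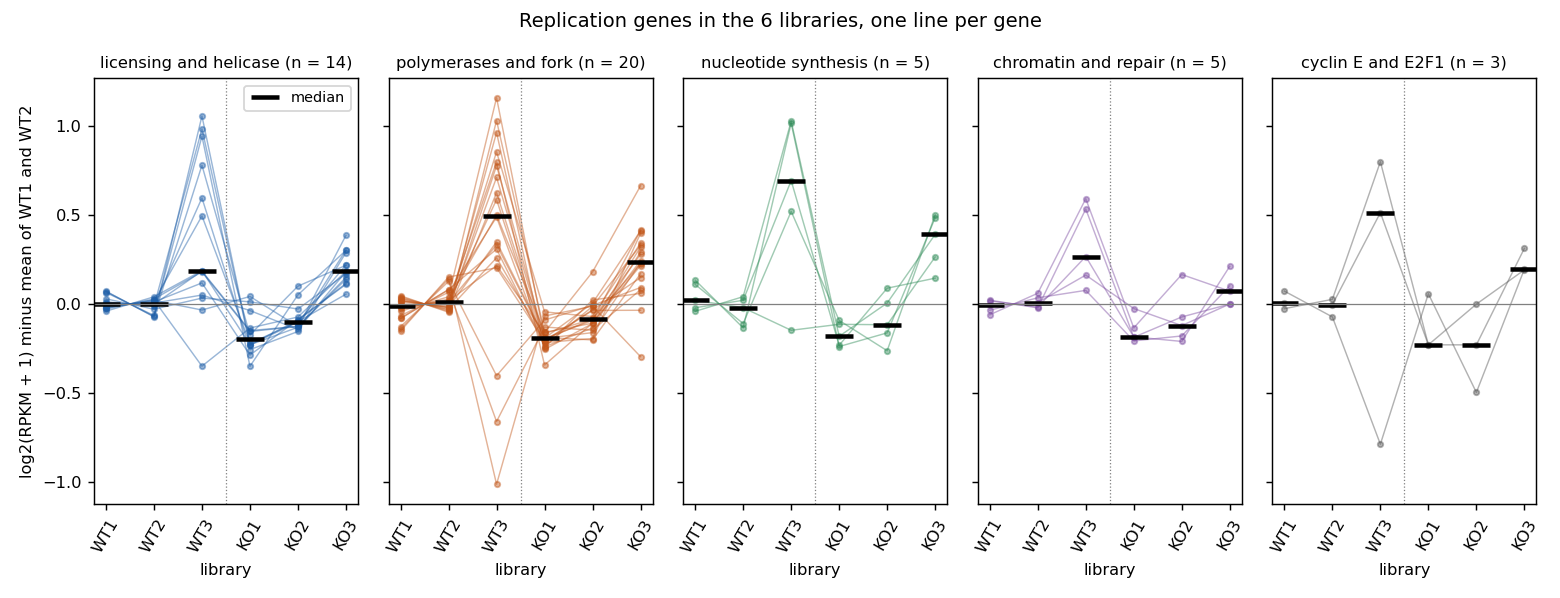
Level of each replication gene in the 6 libraries, as log2(RPKM + 1) minus the mean of WT1 and WT2, in 5 panels by role. Thin lines join the values of 1 gene and thick bars are medians. Over all 47 genes the median is 0.49 in WT3, -0.19 in KO1, -0.10 in KO2 and 0.22 in KO3.

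These deviations went with transcript length. Over the 47 genes, the deviation of WT3 from WT1 and WT2 correlated with the log of the longest annotated transcript at r = -0.60 (rho = -0.60), and that of KO3 from KO1 and KO2 at r = -0.46 (rho = -0.39). Over 8261 rows with a length the corresponding values were -0.50 (rho -0.62) and -0.08 (rho -0.29). These are descriptions across genes that share libraries. Of the 16 genes with the shortest transcripts (682 to 2696 nucleotides) WT3 was higher by a median of 0.70 log2 units, and of the 16 with the longest (3496 to 7698) by 0.12. After the length trend over all rows was removed from each library, WT3 remained above WT1 and WT2 by a median of 0.26 in replication genes and KO3 by 0.14, KO1 and KO2 stood at -0.15 and -0.06, and the medians over all rows were between -0.01 and 0.00. In rows at 20 RPKM or more these medians were 0.21 for WT3, 0.11 for KO3, -0.03 for KO1 and -0.06 for KO2. The KO minus WT median was then -0.12, with 39 of 47 lower, beside 49.9% lower over all rows and 63.8% of rows at a mean RPKM of at least 20 (median -0.06).

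**Figure D3:**
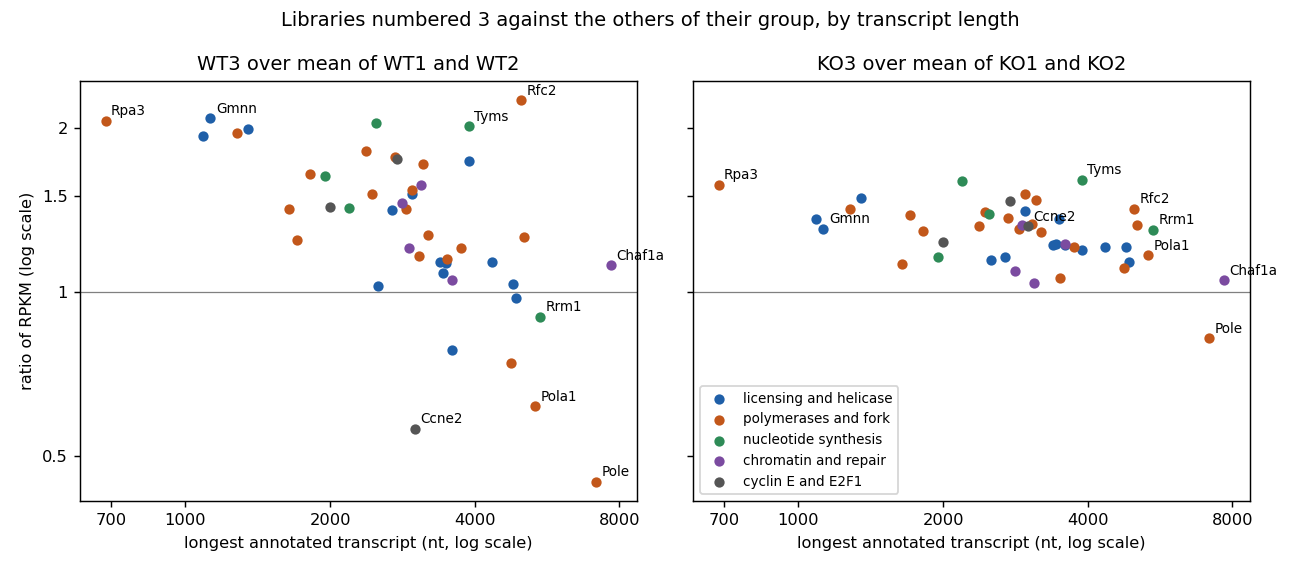
Ratio of each replication gene's RPKM in WT3 to the mean of WT1 and WT2 (left) and in KO3 to the mean of KO1 and KO2 (right), on a log scale, against the length of its longest annotated transcript. Points are genes, coloured by role. On the left the ratio is 2.07 for Rpa3, the shortest, 0.449 for Pole and 1.12 for Chaf1a, the longest. Rfc2 (2.25) and Tyms (2.02) stand high although their longest annotated transcripts have 4995 and 3884 nucleotides. Whether those transcripts are the ones expressed was not tested. On the right all but Pole are above 1.

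Leaving out libraries changed the picture in opposite ways. Without WT3 the lean was gone: 28 of 47 were lower and 19 higher, with a median of -0.01, the same as that of all rows, of which 55.0% were lower (49.3% of rows at a mean RPKM of at least 20, median 0.00). In that fit limma called 0 of 47, and 1 gene of all rows (0.0120%). With both libraries numbered 3 left out, a comparison chosen after the values were seen, 45 of 47 genes were lower in KO1 and KO2 than in WT1 and WT2, with a median of -0.14. The exceptions were Rpa3 (0.01) and Ung (0.02). Of all rows 59.9% were lower (median -0.03), of rows at a mean RPKM of at least 20 it was 74.0% (median -0.08) and of rows at 50 or more 73.7% (median -0.09). KO1 and KO2 were both below both WT libraries in 30 of 47 genes, against 22.8% of all rows, 32.1% of rows at a mean RPKM of at least 20 and 32.0% of rows at 50 or more. Both were above in 0 of 47, against 11.4% of all rows. At a mean RPKM of at least 20 both were above in 130 of 2848 rows, and at 50 or more in 63 of 1401.

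The size of this difference was small. The mean of KO1 and KO2 relative to that of WT1 and WT2 ran from -15.1% for E2f1 to 1.76% for Ung, with a median of -9.14%. For Pcna it was -13.3%, for Mcm7 -13.3%, for Slbp -12.8%, for Rrm2 -11.7% and for Rrm1 -7.72%. With limma 0 of 47 passed (adjusted p of at least 0.957), while 2 of all rows did (0.0241%), and every interval lay within 1 log2 unit of 0, between -0.70 and 0.36. By role, 14 of 14 licensing and helicase genes were lower (median -0.15), 19 of 20 polymerase and fork genes (-0.13), 5 of 5 nucleotide genes (-0.12), 4 of 5 chromatin and repair genes (-0.13) and 3 of 3 of the cyclin E and E2F1 genes (-0.22). With quantile normalization added, 41 of 47 were lower, with a median of -0.07 (all rows -0.01, 54.5% lower, and rows at a mean RPKM of at least 20 -0.02, 56.4% lower).

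Differences were then taken within numbered pairs. KO was below WT in 44 of 47 genes in pair 1 (median -0.19), in 40 in pair 2 (-0.11) and in 34 in pair 3 (-0.24), against 55.1%, 58.8% and 51.3% of all rows. Among the 2848 rows at 20 RPKM or more the shares were 69.6% (median -0.11), 65.3% (-0.06) and 66.1% (-0.27), and at 50 or more pair 3 had 74.2% (-0.42), above the 72.3% of the replication genes in that pair. KO was below WT in every pair in 28 of 47 genes, against 20.1% of all rows, 31.8% of rows at a mean RPKM of at least 20 and 34.8% of rows at 50 or more. It was above in every pair in 0 of 47, against 10.8% of all rows, 128 of the 2848 rows at 20 or more and 56 of the 1401 at 50 or more. The replicate block in limma called 0 of 47, with limma adjusted p values of at least 0.715, where it also called 0 of all rows. With the length trend removed as well, Rfc3 and E2f1 were under 0.05 before adjustment, as were 6.46% of all rows. Neither passed after it (limma adjusted p = 0.674 for both).

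Further genes of replication and nucleotide metabolism, such as the origin recognition complex, Cdc45, topoisomerases, purine synthesis enzymes and other E2F and Rb family members, were divided evenly between the directions. Of 78 listed, 77 were found and 73 tested, with 36 lower, 37 higher, a median of 0.00 and 0 called by limma. The genes with the greatest change in this list were again those in which WT3 stood apart. Rnaseh2c, a short subunit of ribonuclease H2, was at 184, 160 and 616 RPKM in WT and 154, 169 and 231 in KO (log2 fold change -0.53, SE 0.51). Atad5, the unloader of PCNA, was at 17.9, 20.5 and 5.48 RPKM in WT and 20.4, 18.5 and 16.4 in KO (0.49, SE 0.44). Rb1, the repressor of E2F, was at 67.6, 78.3 and 39.2 RPKM in WT and 83.9, 69.8 and 91.4 in KO (0.45, SE 0.28). The KO and WT values did not overlap in 2 genes, Orc3 and Rbl2, both higher in KO and chosen here after their values were seen. Over all rows KO lay wholly above in 2.18%, a share close to 2 of 73. With both libraries numbered 3 left out, 48 of 73 were lower (median -0.04).

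Mitosis genes gave a lower fitted value in 17 of 25 with all libraries (median -0.06), and in 24 of 25 with both libraries numbered 3 left out (median -0.14). In that same comparison 11 of 11 erythroid markers were lower, with a median of -0.15, beside 59.9% of all rows and 74.0% of rows at a mean RPKM of at least 20. With all 6 libraries 6 of 11 erythroid markers were lower (median -0.06), and with quantile normalization 4 of 11 (median 0.18). Both lists thus leaned the same way as the replication genes when the libraries numbered 3 were left out.

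**Figure D4:**
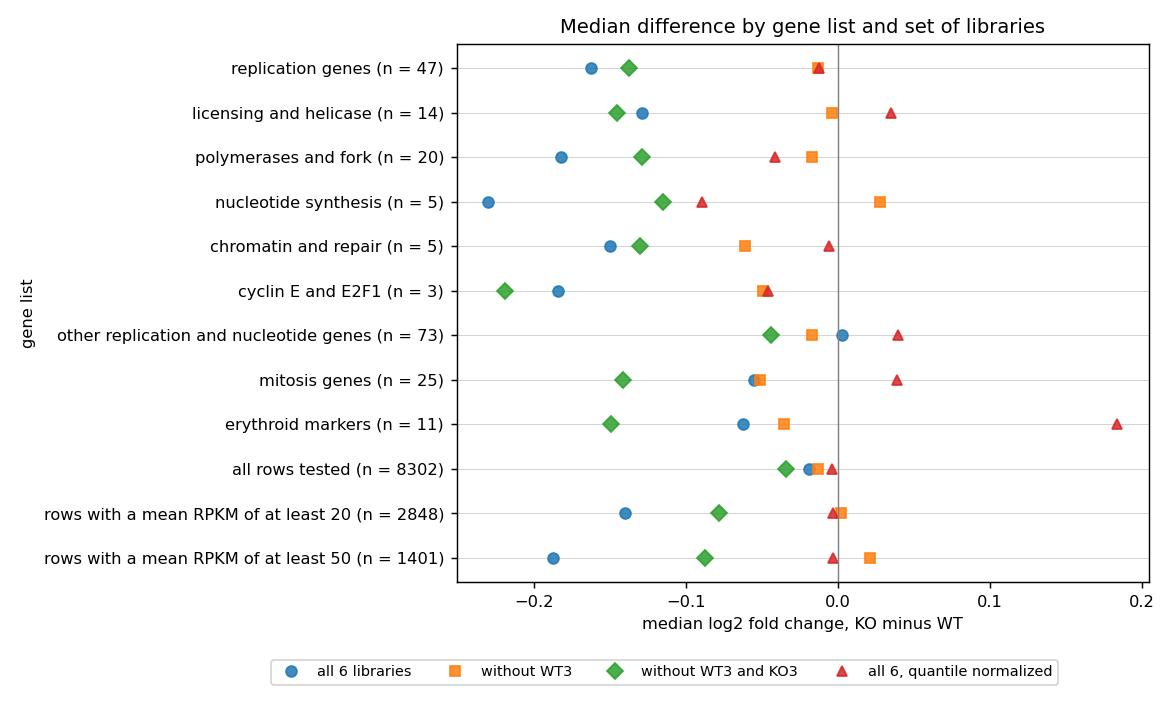
Median log2 fold change (KO minus WT) of the replication genes, of their roles and of other gene lists, with all 6 libraries, without WT3, without WT3 and KO3, and with quantile normalization. The number of genes tested is given beside each list. The replication genes move from -0.16 to -0.01 without WT3 and to -0.14 without both libraries numbered 3.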

How the data were processed

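RNA of 6 libraries was sequenced from TruSeq libraries of total RNA, per the labels' protocols. The deposited values are RPKM, made by the authors with TopHat and Cufflinks on build mm9, per the submitters' processing notes (versions, annotation and strand setting not given in the sources used here). Such values are scaled to gene length and library total, so a library poor in long transcripts shifts genes by length. Of 23119 rows, 25 that carry a number in place of a name (0.158% of the RPKM sum) were left out, and 492 join several names. Absolute depth is unknown. From whole-read steps of low values, depth relative to WT2 was 88.9% for WT1, 91.7% for KO1, 84.4% for KO2 and 79.0% for KO3. Ratios lay within 0.03 log2 units of a whole-read step in 72.0% to 75.4% for 3 of these, but in 39.9% for KO1, and WT3 was not resolved (17.2%).

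Log2(RPKM + 1) values of all rows averaging at least 1 RPKM were fitted by limma 3.58.1 (R 4.3.3), allowing the variance to follow the mean, with Benjamini-Hochberg adjustment at 0.05. Fold changes are on that scale, which understates changes of low genes, and intervals are 95% intervals of the fit. The script was tested on simulated data. Transcript lengths are of the longest GENCODE vM21 transcript per symbol. The members, the other gene lists, the markers and the rules were chosen with earlier results of these data known. Values in every library are given for genes whose groups do not overlap, the 2 most abundant per role, the 5 with the largest fold change in each direction and any past the threshold, and, outside the 47, for Tfam and the 3 largest changes among further replication genes. Cdt1, Gins3, Tyms, Tk1 and the other genes given by value were added after values were seen.

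Replicates are numbered alike. Deviations from group means correlated at 0.46, 0.17 and 0.53 between libraries numbered 1, 2 and 3, each above 0.1, and libraries of like number were treated as pairs, on the strength of this check and not from a label (WT2 and KO1 correlated at 0.40). Alternatives were a pseudocount of 0.1, other filters on low values, quantile normalization, median centring, no variance trend, library weights, the replicate block, removal of the length trend and leaving out each library. Those without both libraries numbered 3, and the cuts at a mean RPKM of 20 and 50, were chosen after seeing the data.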

Additional observations from a re-analysis of the deposited data

How the results depend on the processing

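Limma called 0 of 47 replication genes in every setting run. Over all rows the test called 0 genes with all 6 libraries. It called 60 with library weights (21.4 for WT1, 0.565 for WT2 and 0.0859 for WT3), 2 with both libraries numbered 3 left out, 2 when quantile normalization was added to that, and between 0 and 2 when each library was left out in turn (1 without WT3, 2 without KO2 and 1 without KO3). The replicate block changed no call of a replication gene (0 of 47 with and without it) and the count over all rows stayed at 0. Quantile normalization turned the median of licensing and helicase genes from -0.129 to 0.035, with 6 of 14 lower and 8 higher. Under quantile normalization this was the only role whose median changed sign. Without WT3 the median of nucleotide synthesis genes also turned, from -0.23 to 0.028. Quantile normalization also moved the median of chromatin and repair genes to -0.006 and turned 6 named genes higher in KO: Mcm6 0.053, Pcna 0.048, Lig1 0.012, Rrm2 0.093, Slbp 0.058 and Uhrf1 0.071. Among the genes chosen by rule for values in every library, those with a higher fitted value in KO turned lower as follows. With library weights it was -0.073 for Rrm1, -0.192 for Ccne2, -0.023 for Pola1 and -0.037 for Mcm4. With the length trend removed, with or without the replicate block, Rrm1 was at -0.070. With both libraries numbered 3 left out the values were -0.115 for Rrm1 (-0.032 with quantile normalization added), -0.040 for Pole (-0.026), -0.219 for Ccne2 (-0.189), -0.138 for Pola1 (-0.089), -0.049 for Rfc1 (-0.014) and -0.104 for Mcm4 (-0.050). Outside that rule, Mcm10 turned to -0.042 and Gins3 to -0.008 with both libraries numbered 3 left out. Mcm10 was also lower, at -0.064, with the length trend removed. Leaving out each library in turn gave -0.350 to 0.049 for Rrm2, -0.066 to 0.124 for Rrm1, -0.508 to 0.008 for Gins4, -0.125 to 0.451 for Pole, -0.081 to 0.389 for Ccne2, -0.065 to 0.305 for Pola1, -0.002 to 0.263 for Rfc1, -0.008 to 0.178 for Mcm4, -0.885 to 0.084 for Rnaseh2c, -0.058 to 0.807 for Atad5 and -0.242 to 0.003 for Tfam. The sign turned without WT3 in all of these except Rrm1 (without KO3) and Tfam (without WT2), and for Rrm2 also without KO2. The median of the replication genes ran from -0.29 to -0.01 in these fits. The cause was not tested. With 3 libraries a group and no counts, the intervals of single genes are wider than the median difference of the list.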

Other observations

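Inhibitors of cyclin-dependent kinases, D cyclins and checkpoint genes, which act before and during S phase, leaned the other way from the replication genes. Of 12 tested of 13 listed, 9 were higher and 3 lower in KO by fitted value, with a median log2 fold change of 0.21 and 0 called by limma (1 at an unadjusted p under 0.05, against 1.20% of all rows). Of all 8302 rows 3900 were higher, but 8 of the 12 genes had a mean RPKM under 20, and among all rows under 20 the share was 56.3%. Cdkn1a, the p53-responsive inhibitor p21, was at 2.40, 1.83 and 1.15 RPKM in WT1, WT2 and WT3 and at 4.10, 3.24 and 3.48 in KO1, KO2 and KO3, so every KO library lay above every WT library. Cdkn1b, the inhibitor p27, was at 50.1, 53.7 and 51.2 RPKM in WT and 69.8, 61.9 and 61.4 in KO, also without overlap, as in 2.18% of all rows. These 2 genes are named after their values were seen. The log2 fold changes were 0.74 (SE 0.20) for Cdkn1a and 0.31 (SE 0.15) for Cdkn1b, limma adjusted p = 0.909 for both, and with both libraries numbered 3 left out they were 0.58 and 0.34. The median of the list was then 0.03, and without WT3 it was 0.04. Cdkn2c, the inhibitor p18, ran with the replication genes, at 61.6, 59.5 and 91.8 RPKM in WT and 46.0, 44.5 and 70.8 in KO (log2 fold change -0.40, SE 0.26). Ccnd3, the most abundant of the list, was at 484 to 630 RPKM in WT and 455 to 579 in KO.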
